A study of Homo sapiens with 3 samples.

Results

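The genes described here are 9 transcriptional targets of the tumour suppressor p53, namely MDM2, ZMAT3, TP53INP1, TP53I3, SESN1, RRM2B, BTG2, GDF15 and FDXR, measured in A375 cells, an established human melanoma line. They were taken by gene symbol: every array probe whose platform annotation carries one of these symbols was a member. Of the 9 genes, 7 had a named probe, 13 probes in all of the 30113 probes with 1 gene symbol, and BTG2 and FDXR were not analysed here. A probe counted as detected on an array when its detection p-value, which compares its signal with the array's negative controls, was under 0.01. By that rule 6 of the 7 genes were detected, each of them on all 3 arrays by its brightest probe. The 3 states of the line were measured with 1 Illumina array of total RNA each. The adherent cells were grown attached in DMEM with 10% serum, the suspended cells were adherent cells replated on sterile plastic dishes in that medium, and the reattached cells were suspended cells moved to culture dishes with fresh medium, where they were left to attach for 1 day. Neither the time in suspension nor the number of cultures behind each RNA is stated in the labels, and all states come from a single line.

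p53 is a transcription factor that is held at a low level in unstressed cells, because its own target MDM2 ubiquitinates it and sends it to the proteasome. DNA damage, nucleotide shortage and oncogene signalling free p53 from MDM2, and it then binds paired DNA elements near genes for cell cycle arrest, repair, metabolism and apoptosis. In melanoma p53 is more often left unmutated and held down through its regulators than it is in most solid tumours, and detachment from matrix is a setting in which cells may die by anoikis, a form of apoptosis.

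The DNA element that p53 recognises consists of 2 copies of a 10-base unit, each with 3 purines, the core C, A or T, A or T, G, and 3 pyrimidines. The unit is its own reverse complement, so that reading 1 strand covers both. The RefSeq windows of 250 bases before to 50 bases after each annotated start of a gene (GRCh38.p14) held entries for 7 of the 9 members, and 4 of these, MDM2, SESN1, GDF15 and FDXR, held 2 abutting units with at most 3 mismatches in 20 bases. Of 27305 genes with a window, 6.39% held such a stretch in at least 1 of their windows. Those genes had 35116 windows, and a gene with several, such as MDM2 or SESN1, had more places to match. The limit of 3 mismatches was set after a first search that required intact cores. With at most 2 mismatches, 0.82% of genes held one, and MDM2 was the member among them. The windows of the 2 members that were both detected and matched are shown here, since paired elements at the MDM2 start are the known route of the p53 feedback loop, with each stretch of 20 matching bases in capitals. The MDM2 window lies around a downstream start of the gene, at chr12:68808767-68809066 on the plus strand, and the SESN1 window at chr6:109008939-109009238 on the minus strand.
MDM2: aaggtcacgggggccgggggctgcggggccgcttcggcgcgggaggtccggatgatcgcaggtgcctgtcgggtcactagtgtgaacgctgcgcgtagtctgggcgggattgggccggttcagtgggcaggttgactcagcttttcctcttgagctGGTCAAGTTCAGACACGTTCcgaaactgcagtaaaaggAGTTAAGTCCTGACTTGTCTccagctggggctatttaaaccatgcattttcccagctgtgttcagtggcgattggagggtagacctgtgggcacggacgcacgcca
SESN1: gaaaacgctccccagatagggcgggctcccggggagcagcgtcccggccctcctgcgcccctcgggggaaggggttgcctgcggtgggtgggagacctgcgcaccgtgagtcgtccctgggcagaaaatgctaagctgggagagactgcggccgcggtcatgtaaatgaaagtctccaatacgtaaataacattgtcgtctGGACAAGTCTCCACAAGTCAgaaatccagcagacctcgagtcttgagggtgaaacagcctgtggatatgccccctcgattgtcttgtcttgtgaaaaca
In MDM2 the first stretch begins 94 bases before the start and has 2 mismatches, and the other begins 56 bases before it and has 3. In SESN1 the stretch begins 49 bases before the start and has 3 mismatches. The stretches of the other matched members were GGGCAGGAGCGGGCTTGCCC in FDXR, 21 bases before the start, and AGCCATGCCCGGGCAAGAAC in GDF15, 28 bases after it, each with 3 mismatches. ZMAT3, TP53I3 and BTG2 held none in these windows, which says nothing of sites elsewhere in those genes. A match describes the letters and not binding, which the arrays do not measure.

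Each array carried 47323 probes, of which 35.6% to 37.5% were detected, and 11062 genes with a symbol passed the detection limit in some state. With 1 array per state, no difference below has a replicate check, no test between states was possible, and none of the differences has a p-value. Normalised values are log2 signals after background correction and quantile normalisation, and an added offset of 16 makes the differences of dim probes smaller than they are. The median over all genes compared was 0.00 to 0.02 in each comparison. Of the melanocyte markers with a named probe, 7 of 13 were detected, among them SOX10, MITF and CSPG4, and PAX3 in adherent cells alone. PMEL, MLANA, TYR, TYRP1, S100B and KIT, which mark pigmented and melanocytic cells, were not detected. Of the leukocyte markers with a named probe, 3 of 7 were detected (CD68, CD14 and LYZ, with CD68 at signals of 939 to 1120). Of the fibroblast markers 4 of 9 were (LUM, PDGFRB, DCN and PDGFRA, the last by its brightest probe in suspended cells alone). Of the endothelial markers 1 of 6 was (PECAM1, in adherent cells alone). The leukocyte markers PTPRC, CD3E, ITGAM and CSF1R, the fibroblast markers COL1A1, COL1A2, COL3A1, FAP and THY1 and the endothelial markers VWF, CDH5, KDR, TEK and CLDN5 were not detected on any array. Signals of the 7 detected melanocyte markers, summed above background, came to 4494 in adherent, 7004 in suspended and 4861 in reattached cells. In that order the detected markers summed to 302, 290 and 277 for fibroblasts, 1024, 1198 and 1019 for leukocytes and 18.3, 4.35 and 3.46 for endothelium. Of the 9 keratinocyte and epithelial markers with a named probe, the 3 detected summed to 2172, 2203 and 1875. Most of it came from KRT10 at signals of 2118, 2231 and 1861. KRT14 and KRT8 passed the detection limit in the attached states alone and were in suspension at least 1.99-fold and 1.92-fold lower than in adherent cells. The part of such shifts in the differences below was not tested.

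MDM2 encodes the ubiquitin ligase that closes the feedback loop on p53. Its detected probe (ILMN_1736829) gave signals of 116 in adherent, 110 in suspended and 104 in reattached cells, or normalised log2 levels of 6.38, 6.12 and 6.21. The level was thus highest in adherent cells and lowest in suspension. The gap was 1.20-fold between suspended and adherent cells (log2 difference -0.26) and 1.13-fold between reattached and adherent cells (-0.18), and in bulk RNA fewer cells expressing a gene and less of its RNA per cell cannot be told apart. By contrast reattached and suspended cells differed in MDM2 by 0.09, a difference that became -0.02 under median scaling, where all genes had a median of -0.12. Among all genes compared, 27.7% differed by at least as much as MDM2 between suspended and adherent cells. The signals were 2.03 to 2.27 times the median of undetected probes, which leaves MDM2 near the dim end of what the array could measure. The other MDM2 probe (ILMN_1814208) was not detected in any state, with detection p-values of 0.63, 0.29 and 0.21.

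ZMAT3 encodes a zinc finger RNA-binding protein that acts on the stability and splicing of mRNAs downstream of p53. It had the widest range of the 6 detected members, 0.62 on the log2 scale. Its brightest probe (ILMN_2361104) gave signals of 2190, 3298 and 3172 in adherent, suspended and reattached cells, or normalised levels of 11.10, 11.55 and 11.72. Both later states lay above the adherent one, 1.37-fold in suspension (log2 difference 0.45) and 1.54-fold after reattachment (0.62). Reattached cells were 1.12-fold above suspended cells (0.17), though the signal before normalisation was not higher. That difference was 0.01 under median scaling, where all genes had a median of -0.12, and -0.01 with the mean of detected probes. By size, the difference between reattached and adherent cells ranked 171 of 10821 genes, and 1.58% of genes differed by at least as much. This probe was also far above background, at 43.0 to 62.2 times the median of undetected probes.

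The other 2 ZMAT3 probes did not show that difference. ILMN_1654262, annotated to the same transcript as the brightest probe, gave 318, 361 and 308, and its differences were 0.05 for suspended minus adherent and 0.02 for reattached minus adherent. ILMN_1865764, annotated to a cDNA that is not among the transcripts of the RefSeq gene table, gave 231, 237 and 191, and its differences were -0.09 and -0.25. All 3 probes were detected in every state. Across 2593 genes with 2 probes detected on all arrays, the brightest and the next probe differed by a median of 0.17 in their values for reattached minus adherent. In ZMAT3 that gap was 0.60, and 79 of those genes, or 3.05%, had one as large. The mean over its detected probes put ZMAT3 at 0.13 for reattached minus adherent and at 0.14 for suspended minus adherent. Of the 37 genes in this set whose brightest probe passed 1.5-fold between reattached and adherent cells, the next probe had the same sign in 33 and passed 1.5-fold in 12.

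**Figure D1:**
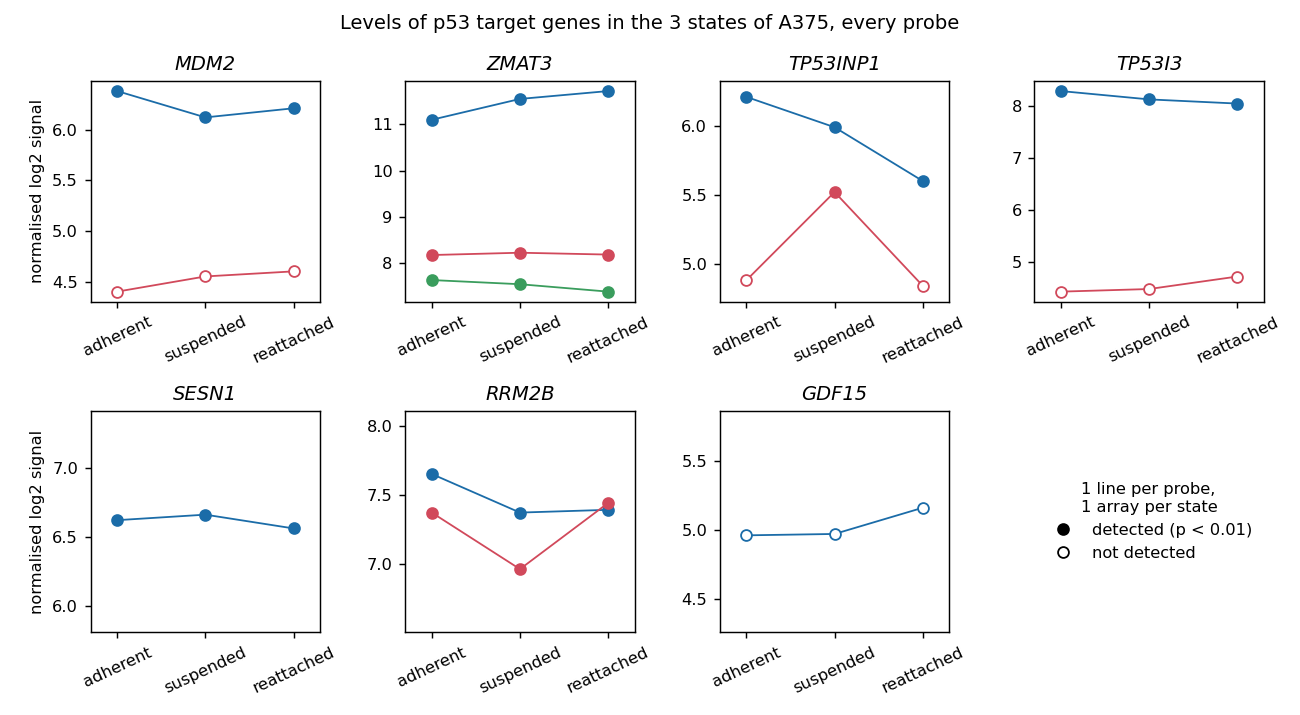
Normalised log2 signal (y axis, a separate scale in each panel) of every probe of the 7 members with a named probe in adherent, suspended and reattached A375 cells (x axis), with 1 line per probe, 1 array per state and no error bars because no state was replicated. Filled points were detected and open points were not. The brightest ZMAT3 probe goes from 11.10 to 11.72 while its other probes stay between 7.39 and 8.23, and the 2 TP53INP1 probes take different courses.

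TP53INP1, a nuclear protein that promotes p53-dependent apoptosis and autophagy, was lowest after reattachment by its brightest probe. That probe (ILMN_1714108) gave signals of 107, 104 and 79.9 in adherent, suspended and reattached cells, or normalised levels of 6.21, 5.99 and 5.60. Reattached cells were 1.53-fold below adherent cells (log2 difference -0.62) and 1.31-fold below suspended cells (-0.39), and suspended cells were 1.17-fold below adherent cells. The first of these ranked 174 of 10821 genes by size. It rests on signals only 1.57 to 2.10 times the median of undetected probes, and with no background correction it was -0.39, short of 1.5-fold. The other probe (ILMN_2214197) had another course, with signals of 62.6, 84.6 and 60.7 and detection in suspended cells alone, where the detection p-value was 0.0039 against 0.045 in adherent and 0.051 in reattached cells. Set against the lowest detected level of each array, it was at least 1.31-fold higher in suspended than in adherent cells and at least 1.17-fold higher than in reattached cells. The 2 probes thus gave opposite signs for suspended against adherent cells and the same sign for reattached against suspended cells.

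TP53I3 encodes a quinone oxidoreductase linked to the oxidative stress that goes with p53-dependent apoptosis. Its detected probe (ILMN_2358919) gave signals of 339, 337 and 280, or normalised levels of 8.28 in adherent, 8.12 in suspended and 8.04 in reattached cells. Adherent cells had the highest normalised level, by 1.12-fold over suspended and 1.19-fold over reattached cells (log2 differences -0.17 and -0.25). The first of these was -0.04 under median scaling, where all genes had a median of 0.10. The other TP53I3 probe was not detected in any state. SESN1, a sestrin that restrains the growth kinase mTORC1 and takes part in antioxidant defence, had a single probe (ILMN_1800626). Its signals were 130, 145 and 123 and its normalised levels 6.62, 6.66 and 6.56, so that its states lay within 0.10 of each other, the narrowest range of the 6 detected members. For suspended against adherent cells, 86.4% of genes differed by at least as much as SESN1.

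RRM2B encodes the p53-inducible small subunit of ribonucleotide reductase, which supplies deoxynucleotides for repair and for mitochondrial DNA. Its brightest probe (ILMN_2170595) gave 232 in adherent, 214 in suspended and 191 in reattached cells, with normalised levels of 7.65, 7.37 and 7.39. The other probe (ILMN_1698231) gave 198, 170 and 196, with levels of 7.37, 6.96 and 7.44. Both probes were lower in suspended than in adherent cells, by log2 differences of -0.27 and -0.41, and no other member had 2 probes detected in both states that shared a sign at this size. After reattachment they parted. The brightest probe stood at 0.02 above the suspended level and the other at 0.47, which put them at -0.26 and 0.06 against adherent cells. Under median scaling the value of 0.02 became -0.12, which was also the median of all genes there. The other subunits of the enzyme moved less, since the large subunit RRM1 stood at 0.01 and the cell cycle subunit RRM2 at 0.18 for suspended minus adherent.

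GDF15, a secreted cytokine of the TGF-beta superfamily that p53 and the integrated stress response both induce, was not well above background. Its only probe (ILMN_2188862) gave 64.7, 67.9 and 68.2, with detection p-values of 0.031, 0.021 and 0.014 in adherent, suspended and reattached cells. With detection set at 0.05 in place of 0.01 the differences were 0.01 for suspended minus adherent and 0.20 for reattached minus adherent. At this signal a difference between states was not measurable at the stricter detection limit.

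In the comparison of suspended with adherent cells, none of the 6 detected members passed 1.5-fold in either direction (0 higher, 0 lower), while 2.71% of 10991 genes were higher and 2.23% lower by that much. Under median scaling those shares of all genes were 4.62% and 1.49%. MDM2, TP53INP1, TP53I3 and RRM2B lay below 0 and ZMAT3 and SESN1 above it, where 5480 of the 10991 genes lay below. The median of the 6 was -0.19, against 0.00 over all genes, with a range from -0.27 in RRM2B to 0.45 in ZMAT3. That median was -0.08 under median scaling, where all genes had 0.10, and -0.06 with the mean of detected probes, by which 3 of the 6 lay above 0. At a looser limit, a log2 difference of 0.32, ZMAT3 was higher and no member lower, where 10.8% of genes were higher and 9.23% lower. At 2-fold, which no member reached, the shares of all genes were 0.5% and 0.655%.

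In reattached against suspended cells the members again stayed within 1.5-fold (0 higher, 0 lower of 6), where 0.821% of 10715 genes were higher and 1.09% lower, shares that median scaling turned into 0.523% and 2.37%. Their median was -0.03, from -0.39 in TP53INP1 to 0.17 in ZMAT3, and 3 of 6 lay above 0, as 5580 of the 10715 genes did. Under median scaling their median was -0.17, where all genes had -0.12, and 1 of 6 lay above 0. With the mean of detected probes 2 of 6 lay above 0. At the looser limit of 0.32, TP53INP1 was lower, as were 6.36% of genes, and no member was higher, as 5.89% of genes were. No member reached 2-fold, where 0.205% of genes were higher and 0.112% lower.

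Reattached and adherent cells had 1 member at 1.5-fold in each direction, where 0.887% of 10821 genes were higher and 1.10% lower. These were ZMAT3 (0.62) and TP53INP1 (-0.62), both just past the limit of 0.58. Neither had a further probe that showed the difference, since those of ZMAT3 lay at 0.02 and -0.25 and that of TP53INP1 was detected in neither state. The nearest member inside the limit was RRM2B at -0.26. At the looser limit of 0.32 the same 2 members were called, where 6.54% of genes were higher and 5.96% lower, and at 2-fold no member was, where 0.037% were higher and 0.102% lower. Of the 6 members, 5 lay below the adherent level, where 5039 of 10821 genes did, and their median was -0.21. This comparison shares its arrays with both others, so the values of a gene in the 3 comparisons are not separate measurements.

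**Figure D2:**
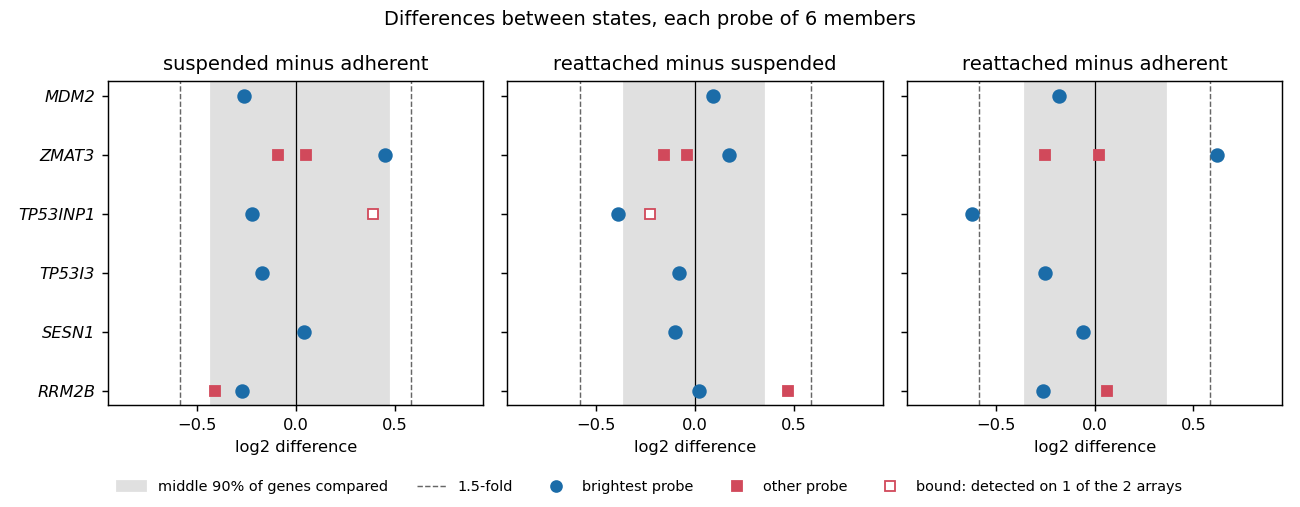
Log2 difference (x axis) of each detected probe of 6 members (y axis) in the 3 comparisons, with circles for the brightest probe, squares for other probes and open squares for bounds from a probe detected on 1 of the 2 arrays. Grey marks the middle 90% of all genes compared and dashed lines mark 1.5-fold. Only the brightest probes of ZMAT3 (0.62) and TP53INP1 (-0.62) lie past a dashed line, both for reattached minus adherent.

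The rest of the p53 network was described with 68 further targets, 65 with a named probe and 51 detected for suspended against adherent cells. Of these 51, 21 lay above 0 and 30 below, where 5480 of 10991 genes lay below. Their median was -0.06, which turned to 0.03 under median scaling, where all genes had 0.10. None was higher by 1.5-fold, where 2.71% of all genes were, and 4, or 7.84%, were lower, where 2.23% were. The 4 were the heparan sulfate sulfatase SULF2, the kinase PLK2, the apoptosis regulator TNFAIP8 and BCL2L1, which encodes the survival protein BCL-XL and was named after its value was seen. SULF2 gave signals of 919, 414 and 516 in adherent, suspended and reattached cells, 2.58-fold lower in suspension, and its other 2 probes gave log2 differences of -1.38 and -1.76. PLK2, a polo-like kinase, was 1.69-fold lower in suspension at levels of 7.39 and 6.63, and stood at 7.57 after reattachment. TNFAIP8 (-0.72) and BCL2L1 (-0.66) were also lower in suspension, though BCL2L1 missed 1.5-fold under median scaling (-0.55), as TNFAIP8 did with no background correction (-0.49), each of which left 3 lower targets. Both lay between the suspended and adherent levels after reattachment. The apoptosis target BAX, named after its values were seen, stood at -0.03 by its brightest probe but at -1.31 by its other detected probe. With the mean of detected probes BAX was also lower by 1.5-fold, which gave 5 lower targets. At the upper end, the apoptosome gene APAF1 stood at 0.56, but its other probe at -0.57. The lipid transfer protein gene PLTP (0.43, other probe 0.25) and the desmosomal p53 effector PERP (0.41) followed.

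By role, the targets tied to cell cycle arrest had a median of -0.09 over 7 genes for suspended minus adherent, those of apoptosis -0.06 over 12, those of DNA repair 0.01 over 3, those of metabolism and autophagy -0.02 over 10 and those of survival and feedback -0.13 over 6. The canonical arrest gene CDKN1A, which encodes the kinase inhibitor p21, gave signals of 1527, 1535 and 1239 and normalised levels of 10.55, 10.46 and 10.33. Its differences were -0.09 for suspended and -0.22 for reattached against adherent cells. The first of these was -0.01 under median scaling, where all genes had a median of 0.10, and it kept its sign under each alternative. At so small a difference between single arrays, adherent and suspended levels of the p21 transcript were not put in order. SESN2, a paralog of SESN1, was detected in adherent cells alone, and SESN3 in no state.

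After reattachment, 48 of the further targets were compared with their suspended level, with a median of -0.03, or -0.17 under median scaling, where all genes had -0.12. PLK2 was the gene past 1.5-fold among them (1.92-fold higher), and none was lower by that much. At the looser limit of 0.32, 10 of the 48, or 20.8%, were higher, where 5.89% of all genes were, and 5, or 10.4%, were lower, where 6.36% were. PLK2, SULF2 (0.55), TNFAIP8 (0.44) and BCL2L1 (0.44), all lower in suspended than in adherent cells, were among the 10. Both comparisons use the suspended array, so a low value there enters each of them. Of the 48, 23 lay above 0, and 14 did under median scaling. Between reattached and adherent cells the median over 51 was -0.02, and SULF2 was the gene past 1.5-fold (1.76-fold lower).

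Regulators of p53 were described in the same way. Of 33 listed, 25 were detected for suspended against adherent cells, with a median of 0.02. None passed 1.5-fold, a count near the background at which 2.71% of all genes were higher and 2.23% lower. The lowest were DAXX (-0.28), an adaptor that holds MDM2 on the deubiquitinase USP7, and the methyltransferase gene KMT5A (-0.24) and the acetyltransferase gene KAT5 (-0.16). The highest were the checkpoint kinase CHEK1 (0.31), the damage adaptor TP53BP1 (0.27) and the methyltransferase SMYD2 (0.21). MDM4, the partner that blocks the activation domain of p53, had levels of 5.89, 5.84 and 6.17, and so was 1.22-fold higher after reattachment than in adherent cells, at signals of 91.9 to 102. CDKN2A, whose ARF product restrains MDM2, was not detected in any state, and the p53 transcript itself was not analysed here. FDX1, the ferredoxin that receives electrons from the product of FDXR, stood at 0.11 for suspended minus adherent at signals near background.

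Genes that p53 lowers indirectly, through p21 and the DREAM repressor complex, are mostly genes of mitosis and DNA replication. All 20 on that list were compared between suspended and adherent cells, with 14 below 0, where 5480 of 10991 genes lay below. The median was -0.09 and none passed 1.5-fold by its brightest probe, again near the background of 2.71% higher and 2.23% lower. Under median scaling, where all genes had a median of 0.10, 10 of the 20 lay below 0. PLK1 (-0.36), AURKB (-0.29) and CCNB1 (-0.28), which drive entry into and passage through mitosis, were lowest. CHEK1 (0.31), RRM2 (0.18) and KIF23 (0.16) were highest. The other detected KIF23 probe stood at 0.70, past 1.5-fold, and at 0.78 for reattached minus adherent. Between reattached and suspended cells, 14 of the 20 lay above 0, where 5580 of 10715 genes did. The median of the 20 was 0.05, which turned to -0.07 under median scaling, where all genes had -0.12.

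**Figure D3:**
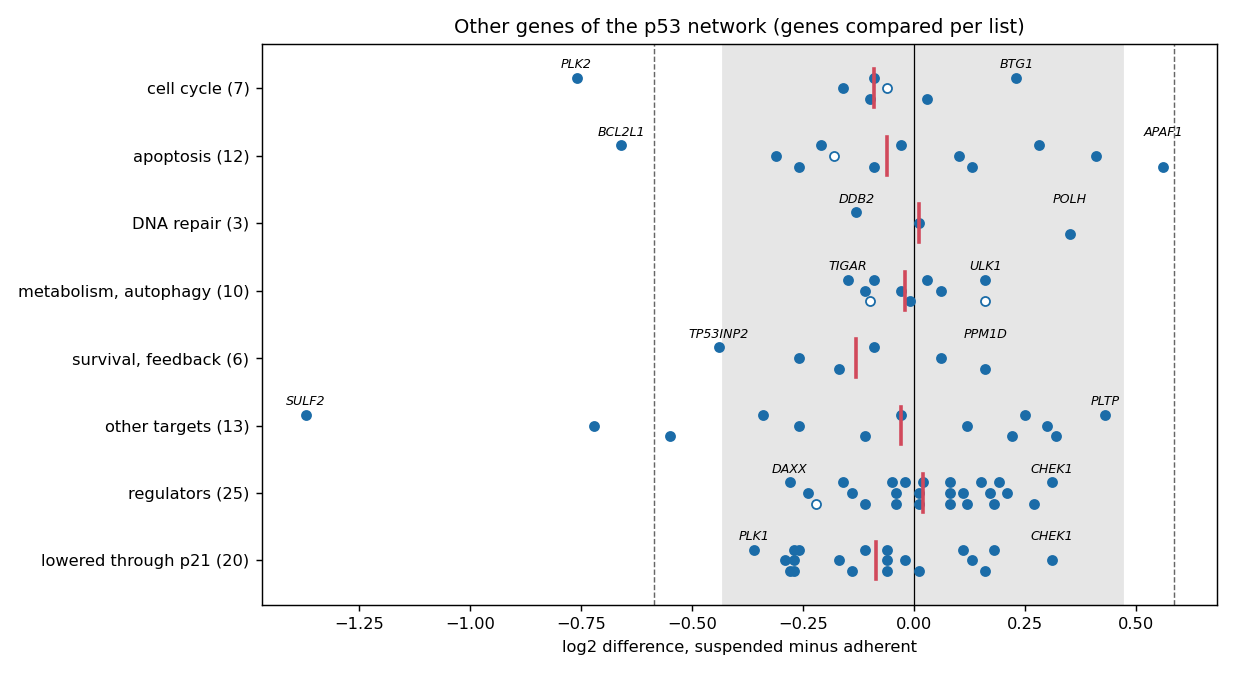
Log2 difference between suspended and adherent cells (x axis) of further p53 targets by role, of regulators and of genes lowered through p21 (y axis, number of genes compared in brackets), with 1 point per gene, open points for bounds, a red bar for the median of each list and the lowest and highest gene named. Grey marks the middle 90% of all genes compared and dashed lines mark 1.5-fold. The medians lie between -0.13 and 0.02, and SULF2, PLK2, TNFAIP8 and BCL2L1 lie left of the dashed line.

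The course of ZMAT3 over the 3 arrays was most closely matched by MON1A, GNG7 and PFDN2, among 9984 genes detected on all arrays. The measure was the Euclidean distance between log2 levels centred on each gene's mean, 0.006 for MON1A, 0.010 for GNG7 and 0.020 for PFDN2. It rests on 3 arrays and on the brightest ZMAT3 probe.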

How the data were processed

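Total RNA of adherent, suspended and reattached A375 cells was measured on Illumina arrays, with Trizol extraction and Ambion cRNA labelling per the labels' protocols. Per the file headers, the deposited scanner output gives every probe a signal intensity, on a linear scale, with its detection p-value on each array. The other deposited table holds intensity values with 1 shared distribution (median 58.1 on each array). No label says how it was made, and it served as an alternative.

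The neqc function of limma 3.58.1 (R 4.3.3) inferred background from the detection p-values, added an offset of 16, applied quantile normalisation and took log2. Python 3.11.15 did the rest. Of 47323 probes, 30113 had 1 gene symbol, 8 with several were dropped and 17202 stayed unnamed here. By Entrez identifier 30074 matched the GRCh38.p14 gene table, with no change of symbol. A gene took its brightest detected probe and entered a comparison if detected (p-value under 0.01) on 1 of the 2 arrays. An undetected value was raised to the lowest detected level, which gives a bound. The procedure was tested on simulated data. With 1 array per state no test was run. Calls were set at 1.5-fold, with a log2 difference of 0.32 and 2-fold beside it. Members, gene lists and calls were chosen with earlier results of these data known. Named genes are the members, CDKN1A, MDM4, RRM1, RRM2, FDX1, SESN2 and SESN3, the 3 highest and 3 lowest of each list among genes detected in suspended and adherent cells, and 3 genes of like course. BAX, BCL2L1 and CDKN2A were named after their values were seen. The limit of 3 mismatches in the p53 element was loosened after a first search that required intact cores, under which 0.524% of genes matched, GDF15 and SESN1 among them. Alternatives changed the normalisation, background, detection limit and probe choice.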

Additional observations from a re-analysis of the deposited data

How the results depend on the processing

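Under 9 alternatives, 161 values of single members could be set beside their main value. Of these, 147 moved by no more than the spread between probes of a gene (0.179 to 0.202 on the log2 scale), 14 moved by more, and 154 kept their sign. Part of this agreement was fixed in advance. Loosening or dropping the detection limit left the brightest probe of each of these members, and so its value, unchanged. Changing the probe choice could not move MDM2, TP53I3 or SESN1, which had 1 detected probe each. The member lower by 1.5-fold between reattached and adherent cells, TP53INP1, gave a count of 0 with the authors' deposited table, with no background correction and with an offset of 50, each at -0.39, and 0 with the mean of the detected probes (-0.23). The count of members higher, 1 by ZMAT3, was 0 with the mean of detected probes. Leaving out the brightest probe, an alternative chosen after seeing the data, gave counts of 0 higher and 0 lower and put ZMAT3 at 0.02. TP53INP1 dropped out of that comparison, which left 5 members, so its absence from the lower count was not measured. For the further p53 targets, the count lower in suspension was 3 to 5 over 8 alternatives, against 4. Median scaling gave 1 higher gene in place of 0 for suspended minus adherent and 1 lower in place of 0 for reattached minus suspended, no detection filter gave 1 higher in place of 0 for reattached minus adherent, and the mean of probes gave 2 higher in place of 1 for reattached minus suspended. Median scaling moved the median of all genes to 0.10 for suspended minus adherent and -0.12 for reattached minus suspended. Over all genes, the counts past 1.5-fold for suspended minus adherent, 298 higher and 245 lower, were 149 and 113 with the authors' table, 156 and 115 with no background correction and 158 and 116 with an offset of 50. For reattached minus suspended, 88 and 117 became 39 and 53, 39 and 57, and 39 and 57, and for reattached minus adherent, 96 and 119 became 22 and 40, 30 and 41, and 31 and 41. Without a detection filter the last 2 pairs were 170 and 209, and 206 and 241. No paired analysis was possible because each state had 1 array. Precision is limited by the 1 array per state and by signal over background, which is lowest for TP53INP1, MDM2 and GDF15. The causes of these shifts were not tested.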
